A study of Mus musculus with 39 samples.

Results

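A set of 10 enzyme genes that modify or crosslink collagen was followed in mouse left ventricle: the lysyl oxidases Lox, Loxl1, Loxl2, Loxl3 and Loxl4, the lysyl hydroxylases Plod1, Plod2 and Plod3, and the prolyl 4-hydroxylase alpha subunits P4ha1 and P4ha2. They were chosen by gene symbol as 3 enzyme families, by a rule that used no measured value, and each matched 1 gene of the deposited table, so that 10 of its 38293 genes are described. The families were picked with earlier results of these data known, so counts over the 10 genes are descriptions. Collagen chains are hydroxylated on proline and lysine in the endoplasmic reticulum before they fold. Prolyl 4-hydroxylation keeps the triple helix stable at body temperature, and lysyl hydroxylation provides sites for sugars and for later crosslinks. After secretion, the copper-dependent lysyl oxidases convert lysine and hydroxylysine side chains to aldehydes, which join neighbouring collagen or elastin molecules and stiffen the matrix of scarred or failing myocardium.

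All mice were C57BL6/J. One set of hearts compared wild type mice with mice carrying the R14del variant of Pln, the gene of phospholamban, a regulator of the calcium pump of cardiomyocytes. Homozygous (Pln R14del/R14del) and wild type hearts were taken at 3 weeks (n = 4 each), at 5 weeks (n = 4 each) and at 8 weeks (n = 4 homozygous, n = 3 wild type), and heterozygous (Pln wt/R14del) hearts at 8 weeks (n = 4), all without surgery. The other set consisted of wild type male mice operated on at 12 weeks of age. In 4 of them the left anterior descending coronary artery was closed and reopened, and tissue was taken after 3 days (ischemia-reperfusion, I/R). In another 4 it was closed for good, and tissue was taken after 8 weeks (myocardial infarction, MI). The 4 sham-operated controls were 2 hearts at 12 weeks and 2 at 20 weeks of age, pooled here as 1 group. Surgery samples came from muscle remote from the infarct, so that no value below describes the scar itself. I/R and MI hearts also differ in age and in time after surgery. Nothing in the labels tells whether replicates shared a litter or a preparation. A p-value here therefore weighs a difference between groups only against the spread among the deposited samples in the fit.

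Total counts per library ran from 9.4 M to 19.3 M (M, 1000000 counts), and from 9.78 M to 12 M in the 5-week libraries. The left ventricle label was met in all groups: the ventricular genes Myl2, Myl3 and Irx4 together held 5460 to 15000 counts per 1000000 counts of their library (CPM) and the atrial genes Myl7, Myl4 and Sln 8.13 to 690 CPM. The deletion cannot be seen in counts per gene, so the level of Pln, which ran from 1830 to 6900 CPM over the 39 libraries, does not check the genotype labels. No 2 libraries held identical counts. Fold changes were taken after TMM scaling, which sets the bulk of genes as unchanged. Scaling by library size instead moved the median log2 change of all genes by 0.21 at 5 weeks, 0.19 at 8 weeks, 0.21 after I/R and 0.11 after MI. The share of called genes that were higher then went from 51.0% to 79.2% at 5 weeks, from 51.5% to 63.6% at 8 weeks, from 54.5% to 90.7% after I/R, and from 58.1% to 81.6% after MI. For homozygous against heterozygous hearts that share went from 51.6% to 67.0% and for I/R against MI from 55.9% to 80.5%, with shifts of 0.22 and 0.12. Changes below are therefore relative to the bulk of genes.

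In GRCm38, Loxl1 lies on chromosome 9 from 58287738 to 58313186 (minus strand), Loxl2 on 14 from 69609068 to 69695834 (plus), Loxl3 on 6 from 83034173 to 83052562 (plus) and Loxl4 on 19 from 42593982 to 42612813 (minus). Plod1 lies on 4 from 147909753 to 147936767 (minus), Plod2 on 9 from 92542223 to 92608428 (plus) and Plod3 on 5 from 136987019 to 136996648 (plus). P4ha1 lies on 10 from 59323296 to 59373304 (plus) and P4ha2 on 11 from 54100095 to 54131665 (plus). Loxl3 shares 535 exonic bases with Htra2 and Plod3 shares 529 with Znhit1, both on the opposite strand. Whether the counting used strand is not given in the sources used here. Reads of these pairs may therefore be uncertain. Htra2 (21.9 to 46.8 CPM) and Znhit1 (19.8 to 34.3 CPM) were each expressed in all 39 libraries.

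Per length, Plod1 and Loxl1 were the leading enzyme genes of the unoperated wild type heart. At 8 weeks wild type hearts held 23.1 ± 2.37 CPM per kb of Plod1 (mean ± SD, n = 3), 18.7 ± 0.914 of Loxl1, 13.9 ± 2.38 of P4ha1, 10.7 ± 0.453 of P4ha2 and 10.3 ± 0.961 of Plod3. Loxl2 (5.37 ± 0.585) and Plod2 (5.27 ± 0.295) followed, then Loxl3 (2.24 ± 0.2), Lox (0.891 ± 0.0959) and Loxl4 (0.306 ± 0.0114). Neighbours in this order lay within 1 SD of each other for P4ha2 and Plod3 and for Loxl2 and Plod2. Lox, the founding member of its family, was thus 1 of the least abundant of these transcripts in the healthy ventricle. In homozygous hearts of the same age it stood second, at 37.7 ± 14.2 CPM per kb (n = 4) behind Loxl1 at 71.7 ± 24.1, and Plod1 followed at 19.5 ± 2.84.

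**Figure D1:**
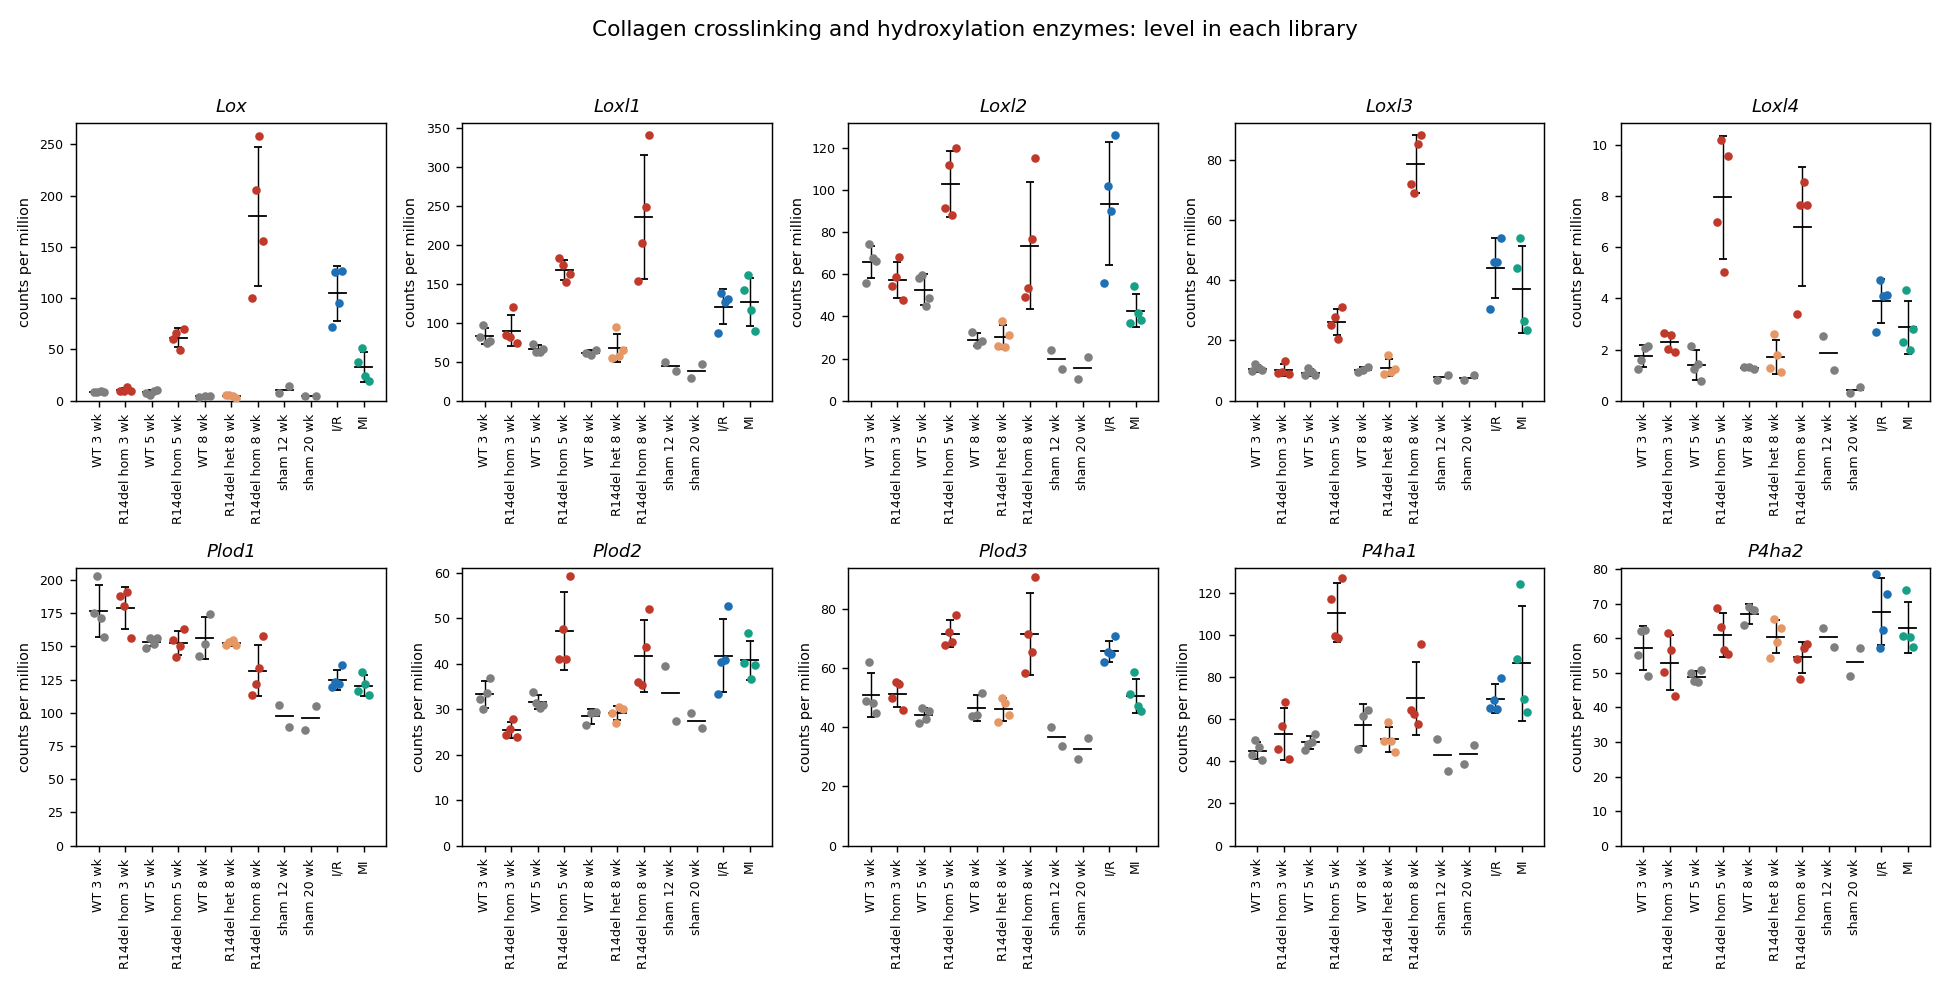
Levels in CPM (y axis) of the 10 genes in every library (points), with the group mean (line) and SD (bars, groups of 3 or 4). Groups are ordered by genotype and age, then surgery. Grey points are wild type and sham, red homozygous, orange heterozygous, blue I/R and green MI hearts. Lox in homozygous hearts at 8 weeks sits between 99.7 and 258 CPM, above all wild type and sham libraries.

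At 3 weeks none of the 10 genes was called between homozygous and wild type hearts. The edgeR quasi-likelihood test called 0% of 13427 genes at an adjusted p under 0.05, while 1515 genes and 2 of the 10 had an unadjusted p under 0.05. The members' median log2 difference was -0.02, and that of all genes 0. Plod2, the lysyl hydroxylase of collagen telopeptides, had the lowest adjusted p. Its level was 24.4, 25.7, 27.9 and 23.9 CPM in homozygous and 32.3, 30.1, 33.7 and 37.0 CPM in wild type hearts. These groups did not overlap, with a log2 difference of -0.42 ± 0.09 (SE) and an adjusted p of 0.213 in edgeR. DESeq2 gave the same difference an adjusted p of 0.0259, the only member it called at this age.

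At 5 and 8 weeks most of the enzyme genes were higher in homozygous hearts. At 5 weeks 8 of the 10 rose and 1, Plod1, fell, where 22.3% of 13323 genes rose and 21.4% fell. At 8 weeks 7 rose and 2, Plod1 and P4ha2, fell, where 30.8% of 14314 genes rose and 29% fell. The members' median log2 change was 0.86 at 5 weeks and 0.81 at 8 weeks, and that of all genes -0 and 0.02. All 5 lysyl oxidases rose at both ages. Of the lysyl hydroxylases Plod2 and Plod3 rose at both ages, and of the prolyl subunits P4ha1 rose at 5 weeks and neither rose at 8 weeks.

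Lox, which crosslinks fibrillar collagen and elastin, showed the largest change of the 10 at both ages. At 5 weeks it stood at 60.4, 66.2, 49.0 and 70.0 CPM in homozygous and 7.85, 5.66, 9.66 and 10 CPM in wild type hearts, a log2 rise of 2.68 ± 0.14, or 6.39-fold (adjusted p 3.58e-11). At 8 weeks it reached 99.7, 206, 258 and 156 CPM, against 3.75, 4.64 and 4.39 CPM in wild type. The groups stood far apart at both ages, and the 8-week rise was 5.22 ± 0.3 on the log2 scale, or 37.4-fold (adjusted p 2.63e-07). The homozygous effect was larger at 8 than at 5 weeks by 2.58 ± 0.42 (adjusted p 1.84e-05). In that same span wild type Lox fell, from a mean of 8.29 ± 2 to 4.26 ± 0.458 CPM, so that both the rise in mutant hearts and the lower wild type level enter the fold. Without any 1 of the 8-week libraries the rise stayed between 5.01 and 5.4.

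Loxl3, a lysyl oxidase with scavenger receptor domains, had the next largest rise at 8 weeks. At 8 weeks its level was 71.8, 69.1, 85.3 and 88.1 CPM in the mutant and 9.51, 10.1 and 11.3 CPM in wild type. No library of 1 genotype came near the other, and the log2 change was 2.77 ± 0.17 (6.83-fold, adjusted p 3.19e-07). At 5 weeks homozygous hearts held 25.2, 27.7, 20.6 and 31.1 CPM, against 8.43 to 10.8 in wild type, a rise of 1.28 ± 0.12 (adjusted p 1.12e-07). The effect was larger at 8 than at 5 weeks, by 1.52 ± 0.27 (adjusted p 7.96e-05).

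Loxl1, linked above all to elastic fibres, was the most abundant lysyl oxidase per length in all groups. It stood at 183, 174, 153 and 163 CPM in homozygous hearts at 5 weeks, against 73.4, 62.0, 62.7 and 66.6 CPM in wild type. At 8 weeks homozygous hearts held 154, 202, 249 and 341 CPM and wild type hearts 60.7, 59.1 and 64.9. Groups were apart at both ages, with rises of 1.14 ± 0.07 (adjusted p 7.35e-10) and 1.76 ± 0.22 (adjusted p 2.45e-05) on the log2 scale. The gain between the ages, 0.65 ± 0.26, had an adjusted p of 0.0567, and without homozygous replicate 1 or 2 of 8 weeks it was 0.0204 or 0.045. DESeq2 gave it an adjusted p of 0.0472.

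Loxl2, which crosslinks collagen IV of basement membranes, and Loxl4 are related to Loxl3 in their domains. Both rose at both ages, and the difference of their effects between ages was not called (adjusted p 0.292 and 0.945). Loxl2 held 91.3, 112, 88.1 and 120 CPM in homozygous hearts at 5 weeks (wild type 44.8 to 59.5) and 49.4, 53.3, 76.8 and 115 CPM at 8 weeks (wild type 26.3 to 32.5). The changes were 0.75 ± 0.1 (adjusted p 4.12e-06) and 1.16 ± 0.23 (adjusted p 0.000929), and mean levels in both genotypes were lower at 8 weeks. Loxl4 was the scarcest of the 10, with 9 to 24 counts per wild type library at 5 and 8 weeks. Its level was 5.01 to 10.2 CPM in homozygous hearts at 5 weeks and 3.39 to 8.55 at 8 weeks, above all wild type libraries of those ages (0.751 to 2.15). It rose by 2.31 ± 0.29 (adjusted p 2.58e-06) and 2.21 ± 0.33 (adjusted p 8.81e-05).

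The 3 lysyl hydroxylases divided. Plod3, which also carries glycosyltransferase activity, rose by 0.49 ± 0.07 at 5 weeks (adjusted p 9.66e-06) and 0.45 ± 0.11 at 8 weeks (adjusted p 0.00286), from 41.4 to 46.5 CPM in wild type to 67.6 to 77.7 CPM in homozygous hearts at 5 weeks. Plod2 stood at 41.0, 47.7, 41.1 and 59.3 CPM in the mutant at 5 weeks, with 33.9, 31.5, 30.3 and 31.0 CPM in its controls, and rose by 0.37 ± 0.1 (adjusted p 0.00538). At 8 weeks it held 36.0, 35.3, 43.7 and 52.0 CPM against 26.6, 29.2 and 29.5 CPM, a rise of 0.39 ± 0.11 (adjusted p 0.0102). These groups did not overlap at either age. The homozygous effect on Plod2 differed between 5 and 3 weeks by 0.78 ± 0.17 (adjusted p 0.00111).

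Plod1, the main hydroxylase of helical lysines, did not follow the others. At 5 weeks it stood at 155, 142, 150 and 163 CPM in homozygous and 149, 156, 152 and 156 CPM in wild type hearts, and the groups overlapped. After TMM scaling it fell by 0.21 ± 0.06 (adjusted p 0.0098), but with library size scaling the difference was -0.01 (adjusted p 0.949). At 8 weeks it stood at 113, 122, 134 and 158 CPM against 143, 152 and 174, and fell by 0.41 ± 0.09 (adjusted p 0.0016), or -0.25 with library size scaling (adjusted p 0.065). At both ages the call on Plod1 thus depended on the scaling. Its share of lysyl hydroxylase transcript per length was 59.7 ± 0.68% in wild type (n = 3) and 45.4 ± 1.3% in homozygous hearts (n = 4) at 8 weeks, without overlap (59.1 to 60.4% and 43.9 to 46.8%), while the shares of Plod2 and Plod3 were higher.

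P4ha1 and P4ha2 encode the catalytic subunits of the main collagen prolyl 4-hydroxylases and are both known targets of hypoxia-inducible factor. Because the pair responded differently, the 250 bases before the RefSeq start of each (GRCm38.p6) are shown. Matches on either strand to ACGTG, 1 form of the core of the hypoxia response element, are in capitals. Other forms of the core were not searched. The P4ha1 window is chr10:59323046-59323295 on the plus strand and the P4ha2 window chr11:54100674-54100923 on the plus strand. The latter lies inside the longer GENCODE gene, in no exon.
P4ha1: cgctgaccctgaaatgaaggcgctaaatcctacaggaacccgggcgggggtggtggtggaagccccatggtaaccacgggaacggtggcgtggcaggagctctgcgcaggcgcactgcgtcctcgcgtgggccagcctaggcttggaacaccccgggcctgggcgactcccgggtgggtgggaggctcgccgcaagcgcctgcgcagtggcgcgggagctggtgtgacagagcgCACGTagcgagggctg
P4ha2: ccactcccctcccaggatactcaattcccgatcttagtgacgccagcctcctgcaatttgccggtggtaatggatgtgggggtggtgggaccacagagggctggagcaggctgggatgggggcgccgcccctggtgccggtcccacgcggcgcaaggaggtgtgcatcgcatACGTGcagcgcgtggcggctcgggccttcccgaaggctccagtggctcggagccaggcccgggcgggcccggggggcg
Each holds 1 match, 16 bases before the start in P4ha1 (as CACGT, on the other strand) and 78 in P4ha2. Of 32851 mouse promoters of this length in the same table, 16.6% hold the motif. Among the other members with an entry, Plod3 had 1 match and Plod1 and Loxl4 had none of these letters. A match describes the sequence and not the use of a site.

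P4ha1 rose at 5 weeks and was not called at 8 weeks. Its 5-week levels were 117, 99.2, 98.3 and 127 CPM in homozygous and 45.6, 48.3, 49.3 and 52.9 CPM in wild type hearts, a log2 rise of 0.96 ± 0.08 without overlap (adjusted p 2.29e-08). At 8 weeks they were 64.4, 62.3, 57.5 and 95.4 CPM against 46.0, 61.5 and 64.2 CPM, and the groups overlapped (0.13 ± 0.16, adjusted p 0.508). The effect was smaller at 8 than at 5 weeks, with a difference of -0.81 ± 0.22 (adjusted p 0.00562). P4ha1 and P4ha2 were the members whose effect was called lower at 8 weeks. For P4ha2 the difference was -0.54 ± 0.15 (adjusted p 0.00483), from no called change to a fall.

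P4ha2 stood at 68.8, 63.1, 56.5 and 55.3 CPM in homozygous hearts at 5 weeks, and 49.9, 47.6, 47.4 and 50.7 CPM in wild type hearts. In CPM these groups were apart, yet after TMM scaling the difference was 0.11 ± 0.08 (adjusted p 0.273), and with library size scaling 0.32 (adjusted p 0.00244). At 8 weeks the mutant hearts were the lower ones, at 53.9, 48.3, 57.3 and 58.2 CPM against 63.7, 69.0 and 68.1 CPM. P4ha2 fell by 0.46 ± 0.09 there (adjusted p 0.00112). As a ratio of counts, P4ha1 over P4ha2 was 1 ± 0.061 in wild type and 1.82 ± 0.32 in homozygous hearts at 5 weeks (n = 4 each). At 8 weeks it was 0.852 ± 0.12 (n = 3) and 1.28 ± 0.27 (n = 4), with the lowest homozygous heart (1.0) still above the highest wild type heart (0.943).

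**Figure D2:**
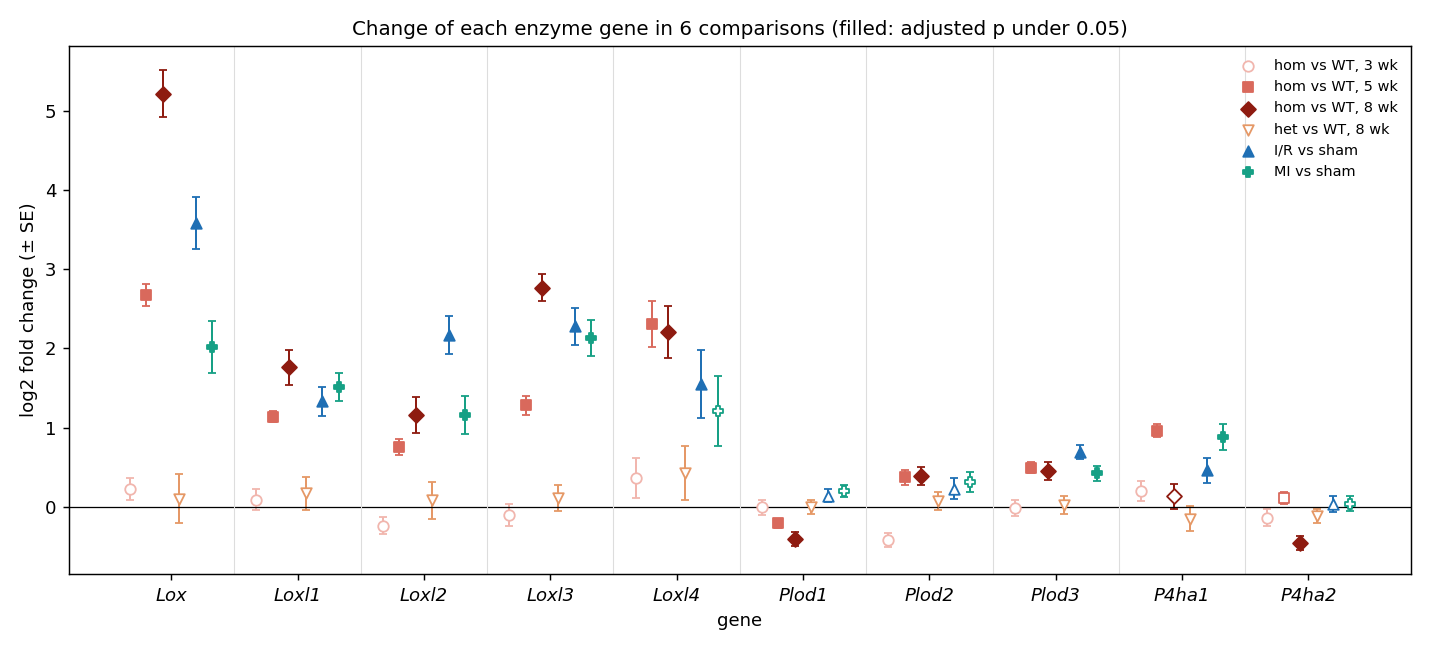
Log2 fold change of each gene (y axis, ± SE) in 6 comparisons, with filled symbols for an adjusted p under 0.05. Lysyl oxidases (left) lie above 0 in the homozygous comparisons of 5 and 8 weeks and after both injuries, Lox reaching 5.22. Plod1 and P4ha2 lie at or below 0.11 in the homozygous comparisons.

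The genotype effect at 5 weeks differed from that at 3 weeks for most of the enzymes. Tested as a difference of the signed effects, 8 of 10 members had a larger effect at 5 weeks and 0 a smaller one, where 11.1% of 14931 genes were called larger and 9.29% smaller. Lox led with 2.45 ± 0.39 (adjusted p 3e-05), followed by Loxl4 (1.93 ± 0.49), Loxl3 (1.37 ± 0.27) and Loxl1 (1.03 ± 0.25). Plod1 and P4ha2 were the 2 not called, though P4ha2 was with library size scaling (0.43, adjusted p 0.0346). With that scaling the share of called genes with a larger effect went from 54.4% to 82.2%, and the median of all genes moved by 0.17. From 5 to 8 weeks the effect moved up for 2 members (Lox and Loxl3) and down for 2 (P4ha1 and P4ha2). Of all genes 14.4% moved up and 13.8% down (up in 51.0% of those called, or 39.2% with library size scaling). The 5-week libraries (9.78 M to 12 M counts) were shallower than those of 3 and 8 weeks (13.1 M to 19.3 M), and differences between ages that involve them cannot be told apart from a difference between the sample sets.

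Heterozygous hearts of 8 weeks did not differ detectably from wild type in any of the 10. The test called 0% of 14314 genes, with 326 genes and 0 members at an unadjusted p under 0.05, and DESeq2 also called none of the 10. Lox was 5.07, 5.56, 4.14 and 3.07 CPM in heterozygous hearts, within reach of the 3.75 to 4.64 CPM of wild type (0.1 ± 0.31). The other 9 differed by between -0.15 (P4ha1) and 0.43 (Loxl4) on the log2 scale, each with an adjusted p of 1. Homozygous against heterozygous hearts gave 7 members higher and 2 lower, where 32% of genes were higher and 30% lower. Lox was higher by 5.13 ± 0.26 (adjusted p 1e-07) and Loxl3 by 2.66 ± 0.15 (adjusted p 1.28e-07). Plod1 was lower by 0.41 ± 0.08 and P4ha2 by 0.34 ± 0.09, though with library size scaling neither call was made (adjusted p 0.0865 and 0.133). Plod2 was higher by 0.32 ± 0.1 (adjusted p 0.0179), a call that was lost without heterozygous replicate 2 (0.0523) or homozygous replicate 4 (0.0597, log2 difference 0.21). P4ha1 was not called (0.27 ± 0.14, adjusted p 0.119) but was without homozygous replicate 3 (0.0475) and with library size scaling (0.47, adjusted p 0.02).

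Remote muscle 3 days after I/R held more of all 5 lysyl oxidases, of Plod3 and of P4ha1 than sham muscle. Of the 10 genes 7 rose and 0 fell, where 16.9% of 13611 genes rose and 14.1% fell, and the members' median log2 change was 1.01 against -0.02 for all genes. Lox was 71.5, 126, 94.9 and 127 CPM after I/R and 7.26, 14, 4.36 and 4.52 CPM in the shams, the first pair of shams being those of 12 weeks. Even the highest sham lay well under the lowest I/R heart, and Lox rose by 3.59 ± 0.33 (12.1-fold, adjusted p 3.1e-06). Against the 12-week shams alone the rise was 3.13 (adjusted p 0.000143).

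Loxl2 rose to 56.1, 102, 90.3 and 126 CPM after I/R from 24.2, 15, 10.4 and 20.7 CPM in shams (2.17 ± 0.24, adjusted p 1.06e-05). Loxl3 went from 6.81 to 8.58 CPM in shams to 30.5, 45.9, 46.0 and 54.1 CPM (2.28 ± 0.23, adjusted p 6.13e-06). Loxl1 rose by 1.33 ± 0.18 (adjusted p 7.55e-05) and Plod3 by 0.69 ± 0.09 (adjusted p 3.89e-05). For these 4 genes no I/R heart overlapped the shams. Loxl4 rose by 1.55 ± 0.43 (adjusted p 0.0123) over shams with only 3 to 28 counts a library, by 2.28 without 12-week sham replicate 1, and by 0.88 against the 12-week shams alone (adjusted p 0.139).

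P4ha1 rose by 0.46 ± 0.16 after I/R (adjusted p 0.0402), with 65.3, 68.9, 64.8 and 79.7 CPM against 50.5, 35.4, 38.8 and 47.9 in shams. The groups were apart, but the call rested on single libraries: it was lost without I/R replicate 2 (adjusted p 0.0704), 3 (0.0595) or 4 (0.104), without 20-week sham replicate 1 (0.0974) or 12-week sham replicate 2 (0.114), and against the 12-week shams alone (0.106). Plod1 (0.14 ± 0.08), Plod2 (0.23 ± 0.13) and P4ha2 (0.03 ± 0.1) were not called. With library size scaling Plod1 (0.37, adjusted p 0.00491) and Plod2 (0.46, adjusted p 0.0252) were called higher. Without 12-week sham replicate 1 the adjusted p of Plod2 was 0.0421.

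In the MI hearts 6 of the 10 genes were higher than in shams and 0 lower, where 6.62% of genes rose and 4.77% fell. The members' median log2 change was 1.02, and that of all genes -0. Loxl3 was the member with the smallest p, at 44.0, 54.0, 26.4 and 23.6 CPM (2.13 ± 0.23, adjusted p 0.000136). Lox was 37.5, 51.1, 24.3 and 18.9 CPM, above the 4.36 to 14 CPM of the shams (2.02 ± 0.33, adjusted p 0.0018). Against the 20-week shams alone Lox rose by 2.71 (adjusted p 0.0034), since the 2 oldest shams were the lowest. Loxl1 rose by 1.51 ± 0.18 (adjusted p 0.000251), Loxl2 by 1.16 ± 0.24 (adjusted p 0.00627) and Plod3 by 0.42 ± 0.09 (adjusted p 0.00691).

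P4ha1 reached 88.6, 124, 69.7 and 63.3 CPM after MI, all above the shams, a rise of 0.88 ± 0.16 (adjusted p 0.00346). Loxl4, at 2.3, 4.33, 1.99 and 2.82 CPM, overlapped the shams (0.319 to 2.51 CPM) and was not called (1.21 ± 0.44, adjusted p 0.0887). Its adjusted p was 0.00949 without 12-week sham replicate 1, 0.0128 against the 20-week shams alone, 0.0465 in DESeq2 and 0.0305 in the fit of all 39 libraries. Plod1 (0.2 ± 0.08, adjusted p 0.132), Plod2 (0.31 ± 0.13, adjusted p 0.154) and P4ha2 (0.04 ± 0.1, adjusted p 0.832) were not called. Plod1 was called with library size scaling (0.31, adjusted p 0.0333) and Plod2 without 12-week sham replicate 1 (0.44, adjusted p 0.0361).

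The injuries differed from each other in Lox, Loxl2 and Plod3, all higher after I/R, where 11.2% of genes were higher and 8.84% lower. Lox was higher by 1.57 ± 0.29 (adjusted p 0.00154) and Loxl2 by 1.01 ± 0.22 (adjusted p 0.00478). Plod3 was higher by 0.26 ± 0.09 (adjusted p 0.0406), a call lost without any 1 of I/R replicates 2, 3 and 4 or MI replicates 1, 3 and 4 (adjusted p 0.0725 to 0.112). P4ha1 was lower after I/R by -0.42 ± 0.16 without being called (adjusted p 0.0733). Its adjusted p was 0.0327 without MI replicate 4, 0.0473 without the filter on low counts and 0.0417 in the fit of all 39 libraries. The call on Plod3 was also lost without that filter (0.0714) and with the replicate number as a block (0.0693).

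Homozygous hearts of 8 weeks were set against the injuries as a difference of signed effects, although age, set and tissue site differ between them. Against MI, 1 member had a larger effect in the mutant and 3 a smaller one, where 19.6% of genes were larger and 17.7% smaller. Lox was the larger one (3.23 ± 0.43, adjusted p 4.38e-07), and Plod1 (-0.58 ± 0.11), P4ha1 (-0.73 ± 0.22) and P4ha2 (-0.47 ± 0.14) the smaller ones. Against I/R the counts were again 1 and 3, where 16.6% and 17.2% of genes were called (larger in 49.2% of them, or 37.4% with library size scaling). Lox was larger by 1.66 ± 0.42 (adjusted p 0.00239), and Loxl2 (-0.99 ± 0.3), Plod1 (-0.52 ± 0.11) and P4ha2 (-0.46 ± 0.14) were smaller. Smaller here means lower on the signed scale: Plod1 and P4ha2 fell in the mutant after TMM scaling and were not called after either injury. Loxl1 was not called in either comparison, with differences of 0.28 ± 0.26 from MI and 0.46 ± 0.26 from I/R. Loxl3 differed from MI by 0.66 ± 0.27 (adjusted p 0.0535), which fell to 0.0431 without homozygous replicate 2 and to 0.037 or 0.00671 without MI replicate 1 or 2. Plod3 differed from I/R by -0.21 ± 0.13 (adjusted p 0.223), or by -0.32 without homozygous replicate 4 (adjusted p 0.0375).

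With age, wild type hearts lost Lox and Loxl2. From 3 to 8 weeks 3 members fell and 2 rose, where 7.81% of genes fell and 8.44% rose. Lox went from 8.55, 8.67, 9.65 and 8.11 CPM to 3.75, 4.64 and 4.39 (-1.02 ± 0.18, adjusted p 0.000973). Loxl2 went from 55.9, 74.3, 67.8 and 66.2 CPM to 32.5, 26.3 and 28.2 (-1.16 ± 0.11, adjusted p 2.14e-06), and Loxl1 fell by 0.4 ± 0.09 (adjusted p 0.00397). In all 3 genes the ages did not overlap. P4ha1 rose by 0.36 ± 0.1 (adjusted p 0.0157), lost without wild type replicate 2 (0.0995) or 3 (0.082) of 8 weeks. P4ha2 rose by 0.25 ± 0.08 (adjusted p 0.035), lost without 3-week replicate 1 (0.0674) or 4 (0.0926) or any 1 of the 8-week libraries (0.0558 to 0.147), with library size scaling (0.0714) and with the replicate number as a block (0.0888). Plod2 was not called (-0.21 ± 0.09, adjusted p 0.122) but was without 3-week replicate 2 (0.0428). In the fit of all 39 libraries, which shares 1 estimate of spread with the mutant and operated hearts, Loxl2 was the only member called over this span, and the adjusted p of Lox was 0.053.

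The steps within this span were uneven. From 3 to 5 weeks 0 members rose and 4 fell, where 15.9% and 15.8% of genes did: Loxl1 (-0.32 ± 0.08), Loxl2 (-0.33 ± 0.1), Plod1 (-0.21 ± 0.07) and P4ha2 (-0.23 ± 0.07), while Lox did not change detectably (-0.08 ± 0.16). That count went to 1 without 3-week replicate 2 or 5-week replicate 3, to 2 without 5-week replicate 2 or 4, and to 1, Plod1, in the fit of all 39 libraries. Plod1 itself was not called with library size scaling (adjusted p 0.0548) or without any 1 of 3-week replicates 1 and 2 and the 4 libraries of 5 weeks (0.0521 to 0.0979). Plod3 (-0.21 ± 0.08, adjusted p 0.0614) was called without 3-week replicate 4 (0.034). From 5 to 8 weeks 1 member rose (P4ha2, 0.48 ± 0.08) and 2 fell (Lox, -0.94 ± 0.18, and Loxl2, -0.83 ± 0.11), where 12.8% rose and 12.6% fell. P4ha1 was not called (0.24 ± 0.1, adjusted p 0.0743) but was without 8-week replicate 1 (adjusted p 0.00721), and the adjusted p of Lox in the fit of all 39 libraries was 0.0547.

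Makeup within the lysyl oxidase family changed along with its total. Summed per length, the family held 27.5 ± 1.2 CPM per kb in wild type hearts of 8 weeks (n = 3), 142 ± 38 in homozygous hearts (n = 4), 19.2 ± 4.4 in shams, 86.5 ± 20 after I/R and 62.1 ± 17 after MI. Lox made up 3.25 ± 0.43% of it in wild type and 26.6 ± 7.5% in homozygous hearts at 8 weeks (18.3 to 32.9%). After I/R its share was 25.3 ± 1.6%, after MI 10.7 ± 1.9% and in shams 8.27 ± 4.7%, so the MI and sham ranges (9.0 to 13.0% and 4.45 to 15.1%) overlapped. That overlap came from the 12-week shams (6.52 to 15.1%). Shams of 20 weeks, the age of the MI hearts, held 4.45 to 6.98%, below all MI hearts. Loxl2 went the other way, from 19.5 ± 2% in wild type to 9.47 ± 1.9% in homozygous hearts. The hydroxylase families moved less in total. At 8 weeks the lysyl hydroxylases held 38.6 ± 3.5 CPM per kb in wild type and 43 ± 7.1 in homozygous hearts, and the prolyl subunits 24.6 ± 2.8 and 25.7 ± 4.6. At 5 weeks the lysyl hydroxylases held 38.3 ± 0.81 and 47.1 ± 3.4, and the prolyl subunits 19.8 ± 0.85 and 36.6 ± 3.5, both without overlap in CPM. After TMM scaling the 5-week mean of Plod1 was 156 CPM in wild type and 134 CPM in homozygous hearts. Those means were 32.2 and 41.5 CPM for Plod2 and 44.7 and 62.9 CPM for Plod3. For P4ha1 they were 49.8 and 96.9 CPM, and for P4ha2 49.7 and 53.6 CPM. In shams, after I/R and after MI the lysyl hydroxylases held 27.7 ± 3.2, 40.8 ± 3.4 and 36.5 ± 3. The prolyl subunits held 19.6 ± 2.4, 27.8 ± 2.5 and 31.1 ± 7.7 there. These sums were not tested, and they were taken without TMM scaling.

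**Figure D3:**
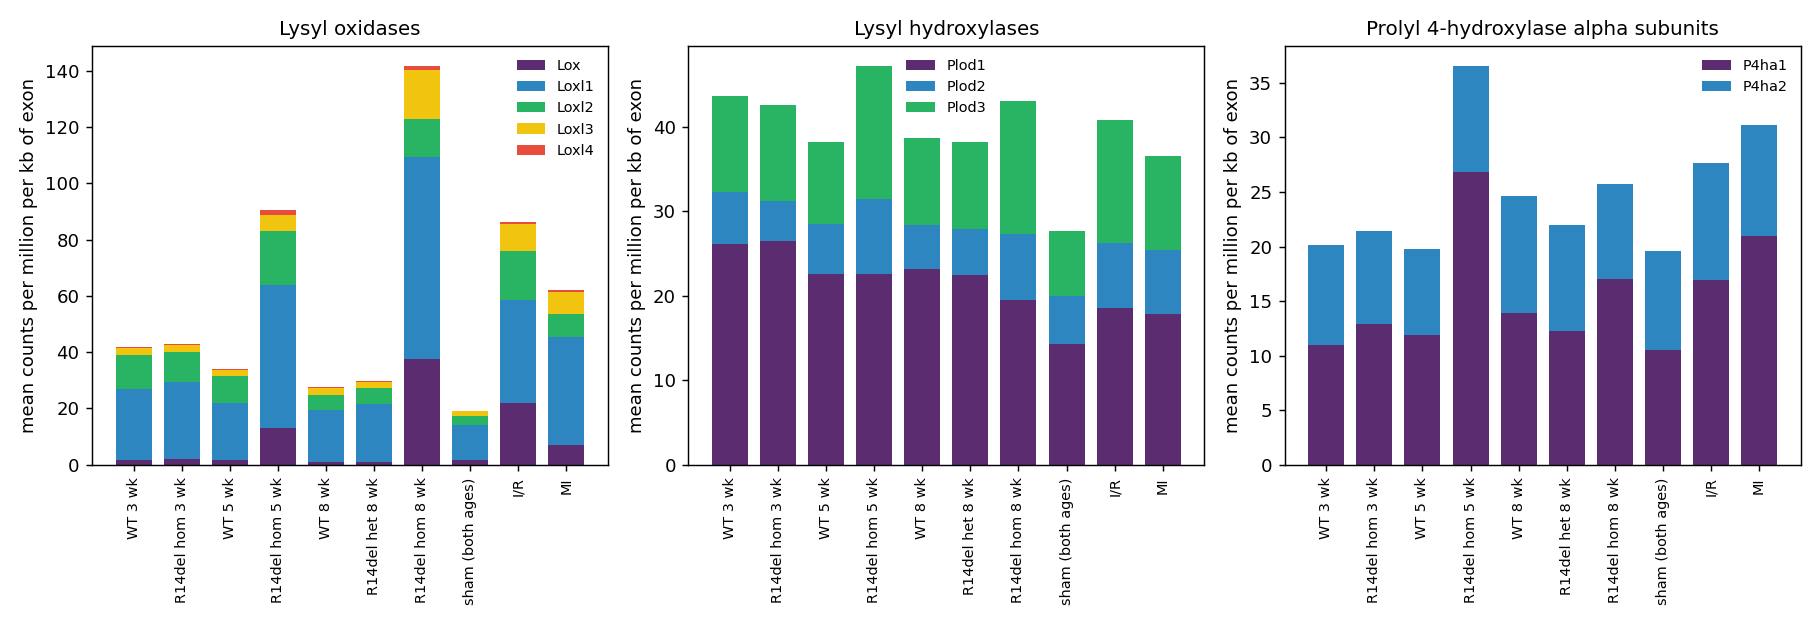
Mean CPM per kb of exon, stacked by gene, for each family and group (n = 4, and 3 for wild type at 8 weeks). The lysyl oxidase bar of homozygous hearts at 8 weeks reaches 142, with Lox at 37.7, against 27.5 in wild type, whereas the other families differ less between groups.

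Substrate genes rose too. For scale, 22.3% of all genes rose and 21.4% fell at 5 weeks, and 30.8% and 29% at 8 weeks. After I/R the shares were 16.9% and 14.1%, and after MI 6.62% and 4.77%. Of 12 collagen and elastin genes 9 rose and 0 fell at 5 weeks, 10 and 0 at 8 weeks, and 9 and 0 after each injury. Their median log2 changes were 1.01, 1.14, 1.02 (I/R) and 0.8 (MI). In wild type hearts all 12 fell from 3 to 8 weeks (median -1.03), where 7.81% of all genes fell. Col1a1, the main chain of fibrillar collagen I, gives a measure of enzyme transcript relative to substrate. Wild type hearts of 8 weeks held 1.71, 1.9 and 1.93 Lox counts per 100 Col1a1 counts, heterozygous hearts 1.41 to 2.44, and homozygous hearts 16.1, 27.7, 26.2 and 7.7. At 5 weeks the values were 2.18 to 3.92 in wild type and 4.88 to 5.07 in homozygous hearts. At both ages Lox thus stood higher relative to Col1a1 in every homozygous heart than in any unoperated wild type heart of that age. After I/R the ratio was 5.56 to 9.2 and after MI 8.75 to 12.1, against 3.4 to 7.71 in shams, so that I/R hearts overlapped the shams.

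For the 5 hydroxylase genes the same ratio was lower in homozygous than in wild type hearts at both ages and lower after I/R than in shams, without overlap. Col1a1 itself went from 267 ± 17.5 to 1230 ± 196 CPM at 5 weeks and from 230 ± 12.8 to 1090 ± 641 CPM at 8 weeks. It held 141 ± 66.9 CPM in shams and 1390 ± 635 CPM after I/R. Any gene that rose less than Col1a1 has a lower ratio. The share of all genes with a lower ratio was not computed. Plod1 went from 67.9 ± 7.4 to 14 ± 4.6 counts per 100 Col1a1 counts between wild type and homozygous hearts of 8 weeks, P4ha2 from 29.1 ± 0.83 to 5.97 ± 2.4, and P4ha1 from 24.8 ± 3.6 to 7.33 ± 2.6. Among the other lysyl oxidases Loxl2 was also lower, at 12.7 ± 2 in wild type and 7.15 ± 1.1 in homozygous hearts of 8 weeks (10.8 to 14.8 and 5.66 to 7.99) and at 19.8 ± 2.4 and 8.35 ± 0.68 at 5 weeks. Loxl1 (24.8 ± 0.91 and 13.8 ± 2) and Loxl3 (3.52 ± 0.56 and 2.12 ± 0.082) were lower without overlap at 5 weeks. At 8 weeks Loxl1 overlapped between the genotypes (26.8 ± 2.3 and 23.5 ± 4.6, ranges 24.2 to 28.5 and 16.8 to 27.2). Loxl3 then had the higher mean in homozygous hearts (4.47 ± 0.44 and 8.47 ± 3), with overlap (4.12 to 4.97 and 4.34 to 11.6). Loxl4 overlapped at 5 weeks (0.272 to 0.752 and 0.519 to 0.749) and at 8 weeks (0.542 to 0.595 and 0.377 to 1.03). After I/R P4ha2 stood at 3.18 to 9.67 per 100 Col1a1 counts and in shams at 29.4 to 65.5. After MI P4ha2 was below all shams (17.5 to 26.6), while P4ha1 (25.5 to 29.4 against 19.6 to 55), Plod1 (31 to 52.1 against 49.5 to 120), Plod2 and Plod3 overlapped them. That overlap came from the 12-week shams. Shams of 20 weeks, the age of the MI hearts, stood above all MI hearts in these 4 genes. They held 48 to 55 for P4ha1, 108 to 120 for Plod1, 29.7 to 36.1 for Plod2 and 36.2 to 41.7 for Plod3. Plod2 against Plod1 stood at 17.0 to 19.1 per 100 in wild type and 29.0 to 33.0 in homozygous hearts at 8 weeks, but at 24.7 to 37.2 in shams, 28.1 to 38.6 after I/R and 30.1 to 35.8 after MI, where the groups overlapped.

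**Figure D4:**
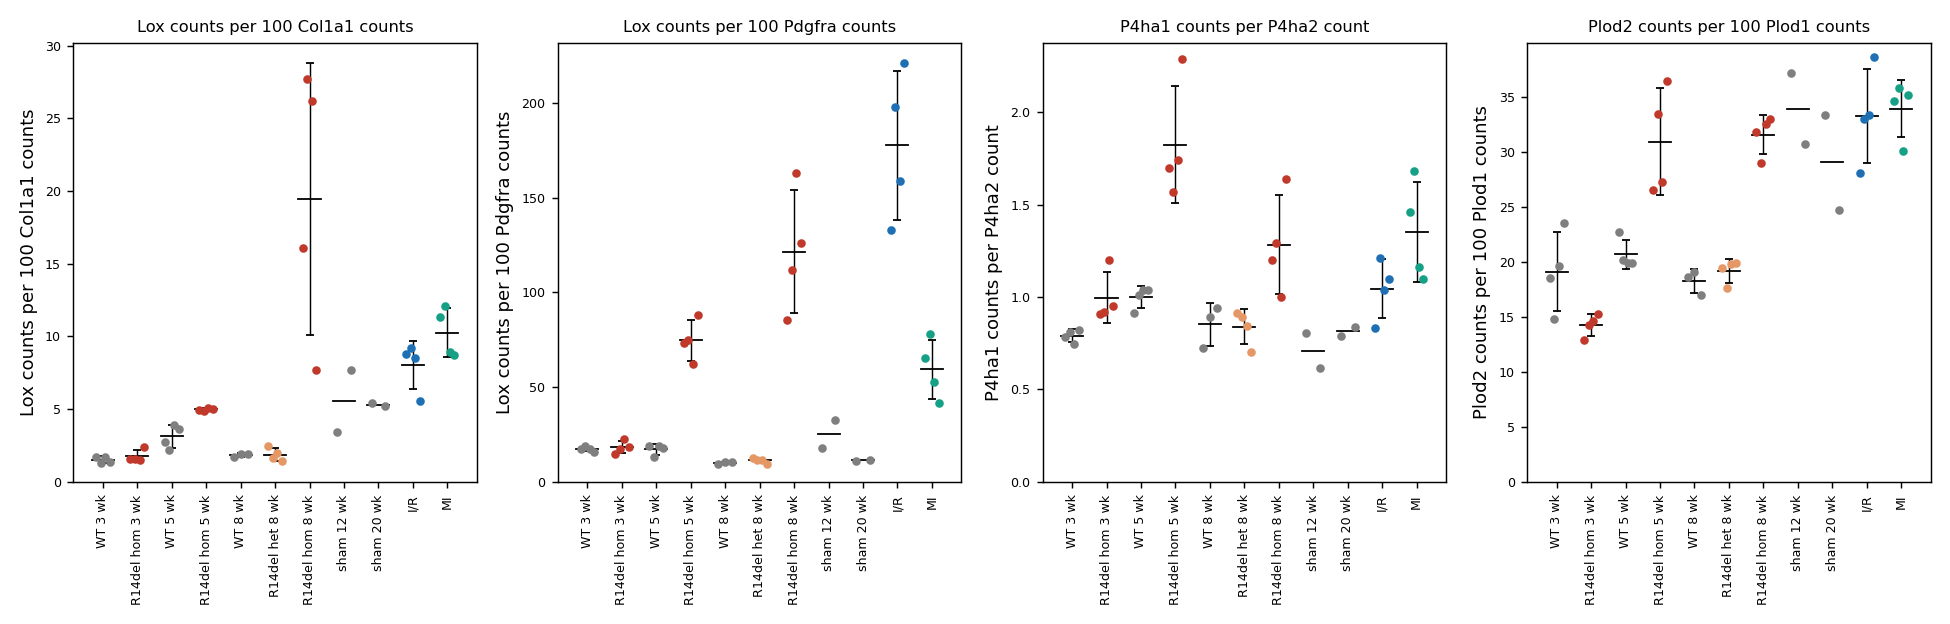
Ratios of counts in each library (points, with mean and SD): Lox to Col1a1, Lox to the fibroblast gene Pdgfra, P4ha1 to P4ha2, and Plod2 to Plod1. Lox per 100 Col1a1 counts runs from 7.7 to 27.7 in homozygous hearts at 8 weeks and from 1.71 to 1.93 in wild type, while Plod2 per 100 Plod1 counts overlaps between surgery groups.

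Genes that work beside these enzymes were taken from lists written with earlier results of these data known, so their counts are a description. The shares of all genes that rose and fell, given above for the substrate genes, apply to these counts and to those of the lists below. Of 8 other prolyl hydroxylase subunits and partners 7 rose and 1 fell at 5 weeks and again at 8 weeks. P4hb, the beta subunit that pairs with both alpha subunits, rose by 1.45 ± 0.07 at 5 weeks (adjusted p 7.05e-12) and 1.74 ± 0.15 at 8 weeks (adjusted p 1.9e-06). P4hb was thus still higher at 8 weeks when P4ha1 was not called and P4ha2 fell. P4ha3, the third alpha subunit gene, rose by 2.79 ± 0.37 at 5 weeks from a low 0.423 ± 0.154 CPM to 3.42 ± 1.26 CPM. P3h4, a partner of lysyl hydroxylase complexes, was the 1 that fell, by 0.32 ± 0.09 and 0.65 ± 0.2, as it did after I/R (0.42 ± 0.12) and MI (0.65 ± 0.12). After I/R 6 of the 8 rose and 1 fell, and after MI 4 and 1.

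Among 10 chaperones, lysyl hydroxylase partners and glycosyltransferases, 9 rose and 1 fell at 5 weeks, 8 and 2 at 8 weeks, 6 and 1 after I/R, and 1 and 0 after MI. Serpinh1, the collagen chaperone HSP47, rose by 0.9 ± 0.06 at 5 weeks, 1.18 ± 0.15 after I/R and 0.53 ± 0.15 after MI. Colgalt2, a collagen galactosyltransferase, fell by 0.7 ± 0.11 at 5 weeks and 1.18 ± 0.15 at 8 weeks. Of 7 procollagen processing genes 3 of 6 tested rose at 5 weeks and 6 of 7 at 8 weeks, with 5 after I/R and 4 after MI, and 0 fell. Bmp1, the protease that releases the Lox propeptide, rose by 0.4 ± 0.06, 0.8 ± 0.11 and, after I/R, 0.97 ± 0.1. Of 12 matrix partners 9 rose at 5 weeks, 11 at 8 weeks, 8 after I/R (with 1 lower) and 9 after MI. They include Postn, a matricellular protein that brings Bmp1 to fibronectin, up by 4.05 ± 0.34 at 8 weeks, and Fbln5, an elastic fibre protein, up by 1.94 ± 0.16.

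Further lists concern signals and cofactors. Their counts stand beside 22.3% of all genes higher and 21.4% lower at 5 weeks, and 30.8% and 29% at 8 weeks. After I/R these shares were 16.9% and 14.1%, and after MI 6.62% and 4.77%. Of 10 TGF-beta ligands and responsive genes 8 of 9 tested rose at 5 weeks, 9 at 8 weeks, 9 after I/R and 8 after MI, and 0 fell. Ccn2 rose by 2.25 ± 0.12 at 5 weeks and 4.77 ± 0.36 at 8 weeks, and Ltbp2 by 2.78 ± 0.13 and 4.63 ± 0.4. Of 15 hypoxia-inducible factor targets outside collagen 3 rose and 6 fell among 14 tested at 5 weeks, and 9 rose and 3 fell at 8 weeks. A part of this factor in the changes of P4ha1 and P4ha2 was not tested. Adm fell by 0.65 ± 0.16 at 5 weeks and rose by 1.68 ± 0.19 at 8 weeks, whereas Slc2a1 rose at both (1.37 ± 0.11 and 1.41 ± 0.18). After I/R 1 rose and 3 fell, and after MI 0 of 14 tested were called. Of 10 genes that supply copper, ascorbate, iron or 2-oxoglutarate 1 rose and 5 fell at 5 weeks, 1 and 6 at 8 weeks, 1 and 2 after I/R, and 0 and 2 after MI. Atox1, a copper chaperone of the secretory route, was the 1 that rose, by 0.28 ± 0.1 at 5 weeks, 0.71 ± 0.11 at 8 weeks and 0.44 ± 0.11 after I/R.

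Cell type markers moved with these changes. All genes rose and fell in shares of 22.3% and 21.4% at 5 weeks, and 30.8% and 29% at 8 weeks. The shares were 16.9% and 14.1% after I/R, and 6.62% and 4.77% after MI. Of 10 fibroblast markers 7 of 9 tested rose and 0 fell at 5 weeks, 9 and 0 of 10 at 8 weeks, 4 and 2 after I/R, and 5 and 0 after MI. Their summed level ran from 1850 to 2230 CPM in wild type and from 5160 to 9210 CPM in homozygous hearts at 8 weeks, from 1590 to 2130 CPM in shams and from 1820 to 1910 CPM after I/R. Lox per 100 counts of Pdgfra, a receptor of fibroblasts, was 9.49 to 10.3 in wild type and 85.3 to 163 in homozygous hearts at 8 weeks, and 133 to 221 after I/R against 11.1 to 32.5 in shams. Lox thus stood higher relative to Pdgfra in both settings. All 10 macrophage markers rose at 5 weeks, at 8 weeks and after I/R, and 2 after MI. They summed to 425 to 467 CPM in wild type and 1870 to 2420 CPM in homozygous hearts at 5 weeks, 393 to 505 and 1350 to 2620 CPM at 8 weeks, and 268 to 457 CPM in shams against 1200 to 1970 CPM after I/R. Of 4 neutrophil markers 1 of 1 tested rose at 5 weeks, 3 of 3 at 8 weeks and 3 of 3 after I/R, and 0 of 3 were called after MI. Their sums were 2.01 to 2.89 CPM in wild type and 6.56 to 13.8 CPM in homozygous hearts at 8 weeks, and 27 to 48.7 CPM after I/R against 3.19 to 7.62 CPM in shams, with 1 of the 4 at 0 in all homozygous hearts of 5 weeks. At 3 weeks, where no member was called, macrophage markers summed to 312 to 401 CPM in wild type and 250 to 323 CPM in homozygous hearts.

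Of 8 activated fibroblast markers 7 rose and 1 fell at 5 weeks, 6 and 0 at 8 weeks, and 5 and 0 after each injury. Endothelial markers fell at 5 weeks (8 of 8), and at 8 weeks 3 rose and 4 fell, where 30.8% of all genes rose and 29% fell. Smooth muscle and pericyte markers fell in 7 of 8 at 5 weeks, and at 8 weeks 1 rose and 4 fell. Cardiomyocyte markers fell in 7 of 8 at 5 weeks, 6 at 8 weeks, 7 after I/R and 2 after MI, and summed to 78500 to 80800 CPM in wild type against 32500 to 54700 CPM in homozygous hearts at 8 weeks. None of the fibroblast, activated fibroblast, macrophage, endothelial, smooth muscle or cardiomyocyte markers was at 0 in a whole group. Of 4 adipocyte markers 3 of 3 tested rose after MI (1.37 to 34.4 CPM summed, shams 0.376 to 3.14 CPM), and of 6 epicardial and mesothelial markers 4 of 5 tested rose in homozygous hearts at 8 weeks (11.1 to 27.2 CPM, wild type 4.89 to 8.3 CPM). In whole tissue more cells of a type and more RNA per cell cannot be told apart, and the part of these cell types in the enzyme changes was not tested.

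Likeness across the 10 groups was described last. By Pearson's r over group means of log2 CPM, the genes most like Loxl1 among 14931 were Col16a1 (0.99), Tmem119 (0.983) and Col14a1 (0.977), and those most like Lox were Gpr176 (0.985), Dhrs9 (0.98) and Picalm (0.98). Loxl3 was most like Srpx2, Galns and Aebp1 (0.974 to 0.975), Loxl2 most like Tubb5 (0.97), and Loxl4 and Plod3 shared a near neighbour, Mrc2 (0.978 and 0.985). P4ha1 was most like Rcan1 (0.953), Plod1 most like Sppl2b (0.987), Plod2 most like Rad50 (0.941) and P4ha2 most like Ephb3 (0.914). Between members, r over the 10 group means was 0.95 for Loxl1 and Loxl4, 0.93 for Lox and Loxl3, -0.58 for Lox and Plod1, and 0.04 for P4ha1 and P4ha2. Within groups, where only the deviations of the 39 libraries count, it was 0.79 for Loxl1 and Loxl2, 0.46 for Lox and Loxl3, and 0.72 for Plod1 and Plod3, whose group means had r = -0.13. All points of a library share its depth and its tissue piece, and these values are descriptions.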

How the data were processed

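The labels' protocols describe Trizol extraction and TruSeq stranded mRNA libraries. The submitters' processing notes name STAR 2.7.3a, featureCounts, Subread 2.0.0 and mm10. The authors deposited raw counts per gene for all 39 libraries. Neither an annotation release nor a strand setting is given in the sources used here. Gene symbols came from GENCODE for GRCm38, and genes without one held 0.133% of counts.

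Levels are counts per 1000000 counts of a library (CPM), divided by exon length in kb where genes are compared. Each comparison was tested with the edgeR 4.0.16 quasi-likelihood test (R 4.3.3) after TMM scaling and its filter on low counts. P-values were adjusted over all genes by Benjamini-Hochberg, with calls at an adjusted p under 0.05, and errors of log2 changes are standard errors. Comparisons within an age or surgery set used that set's libraries, and differences of effects used all 39. The test was checked on simulated counts. Alternatives were DESeq2 1.42.0, other scalings, no filter, all 39 libraries in each fit, a replicate block, age-matched shams, TMM-scaled levels and leaving out each library. All 10 members are named throughout, with the leading genes of each list. The rule for the members used no measured value, but the families and the gene lists were picked with earlier results of these data known, so the counts over them are descriptions.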

Additional observations from a re-analysis of the deposited data

Results flagged for a closer look

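Among 90 tests of single libraries within groups of 4, the one library far from the others was homozygous replicate 3 at 3 weeks, with 13.3 CPM of Loxl3 where the others had 8.78 to 9.4 CPM. Chance alone gives about 1 such library in 20 groups. The same heart was the highest of its group for Lox (13.3 CPM), Loxl1 (120 CPM), Loxl2 (68.2 CPM) and P4ha1 (68.3 CPM).

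The homozygous effect differed between ages in 12 tested cases, given as log2 differences. From 3 to 5 weeks it moved up for Lox (2.45), Loxl4 (1.93), Loxl3 (1.37), Loxl1 (1.03), Loxl2 (0.98), Plod2 (0.78), P4ha1 (0.75) and Plod3 (0.5). From 5 to 8 weeks it moved up for Lox (2.58) and Loxl3 (1.52) and down for P4ha1 (-0.81) and P4ha2 (-0.54). For P4ha2 this was a move from 0.11, not called, to a called fall of -0.46. Set against the effect of MI, the 8-week homozygous effect was higher for Lox (3.23) and lower for P4ha1 (-0.73), Plod1 (-0.58) and P4ha2 (-0.47). Set against the effect of I/R it was higher for Lox (1.66) and lower for Loxl2 (-0.99), Plod1 (-0.52) and P4ha2 (-0.46). Each of these 20 differences passed an adjusted p under 0.05 in edgeR, and the sets compared differ in age and sampling.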

How the results depend on the processing

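Of 2330 recomputed member changes 2249 kept their call or lack of a call, 52 lost the call, 29 gained it and 0 called changes reversed. A change not called in either fit could count as kept with another sign. P4ha2 after I/R, for example, went from 0.03 to -0.02 with age-matched shams and was called in neither fit. Counts of called members that moved by over 1.5 times were 1 for homozygous against wild type at 3 weeks with DESeq2 (0 with edgeR), and 1 for each of wild type 5 against 3 weeks and 8 against 3 weeks in the fit of all 39 libraries (4 and 5 otherwise). With each library left out in turn these 2 counts ranged from 1 to 5 and from 3 to 6. With the replicate block the 15 counts stayed within 1.5 times, 7 for I/R, 6 for MI and 9 for homozygous hearts at 5 and at 8 weeks among them, and 2 member calls were lost. Same-numbered samples had correlations of their deviations from -0.123 to 0.202 over 11 comparisons, and the numbers were not used as pairs in the main test. These values cannot tell whether same-numbered samples shared a litter or a preparation. Of 100 group levels, 7 moved by more than 1 SD with TMM-scaled CPM. Depth limits Loxl4 most, with 3 to 28 counts in the sham libraries.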

Other observations

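Among the 4 homozygous hearts of 8 weeks, replicate 4 was the highest for all members other than Lox and Loxl4: Loxl1 (341 CPM), Loxl2 (115 CPM), Loxl3 (88.1 CPM), Plod1 (158 CPM), Plod2 (52.0 CPM), Plod3 (90.6 CPM), P4ha1 (95.4 CPM) and P4ha2 (58.2 CPM). It stood below replicates 2 and 3 for Lox (156 CPM), below replicate 3 for Loxl4 (7.63 and 8.55 CPM), and had the lowest Lox per 100 Col1a1 counts (7.7). Replicate 1 was the lowest for Lox (99.7 CPM) and Loxl1 (154 CPM) and for Loxl4 (3.39 CPM). Among heterozygous hearts replicate 2 was the highest for all 5 lysyl oxidases, with 5.56 CPM of Lox, 94.4 of Loxl1, 37.9 of Loxl2, 15.1 of Loxl3 and 2.61 of Loxl4.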
